A study of Mus musculus with 28 samples.

Results

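Pla2g5 and Otud3 lie near each other on mouse chromosome 4, and both were chosen here because their array signal separated old from young T cells. Each gene had 1 probe, so the members were 2 genes of the 27666 genes named on the array, and 2 probes of 41174. As context, all probes placed within 500 kb of either probe were followed: 33 further probes of 25 further genes. The choice of Pla2g5 and Otud3 rests on their values in old against young cells, so those values are given as a description, with no test. The neighbouring genes were taken by position and were tested.

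Pla2g5 encodes the group V secreted phospholipase A2, an enzyme that cuts fatty acids such as arachidonic acid from membrane phospholipids. The freed fatty acids feed the synthesis of prostaglandins and leukotrienes. It is one of a cluster of secreted phospholipase genes with Pla2g2a, Pla2g2c, Pla2g2d, Pla2g2e and Pla2g2f, and it is best known from macrophages and other myeloid cells. Otud3 encodes a deubiquitinase of the ovarian tumour (OTU) family, enzymes that remove ubiquitin from proteins.

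The mice were of the BALB/c strain, young (4 months) or old (20 months), and their CD4 or CD8 T cells were sorted. RNA was taken at 0 h, or after 4, 12, 24 or 72 h on plate-bound antibodies to CD3 and CD28, which engage the antigen receptor and a costimulatory receptor. Each age and cell type had 3 arrays at 0 h and 1 array at each later time, 28 in all. Per the labels each time point was RNA pooled from 4 independent sortings and the 0 h arrays are replicates of pools, so p-values measure the spread between these arrays, which may be technical, and not the spread between mice. How the cells were gated is unclear, since by the titles and growth protocol they carried much CD44, and by the sample descriptions and the design text little.

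The promoters of both genes are shown because these nearby genes gave opposite age differences, and because Pla2g5 has separate annotated starts that 1 probe does not tell apart. They are RefSeq sequences of assembly GRCm38.p6, each a window of 300 bases around an annotated start, on the minus strand of chromosome 4. They are the reference strain's sequence. The sequence carried by these BALB/c mice was not measured. In the Pla2g5 sequences capitals mark a CCAAT box and, in the first of them, copies of a repeat of 11 bases. In the Otud3 sequence they mark, in order, GC boxes (GGGCGG on either strand) and an E-box. The E-box is CACGTG.
Pla2g5, chr4:138863420-138863719: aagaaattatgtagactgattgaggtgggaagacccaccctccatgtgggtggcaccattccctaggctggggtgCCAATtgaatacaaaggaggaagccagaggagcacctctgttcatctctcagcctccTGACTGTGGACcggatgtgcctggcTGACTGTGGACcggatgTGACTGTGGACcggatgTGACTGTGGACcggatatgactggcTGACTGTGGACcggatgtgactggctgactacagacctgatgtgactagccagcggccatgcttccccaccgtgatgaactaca
Pla2g5, chr4:138819208-138819507: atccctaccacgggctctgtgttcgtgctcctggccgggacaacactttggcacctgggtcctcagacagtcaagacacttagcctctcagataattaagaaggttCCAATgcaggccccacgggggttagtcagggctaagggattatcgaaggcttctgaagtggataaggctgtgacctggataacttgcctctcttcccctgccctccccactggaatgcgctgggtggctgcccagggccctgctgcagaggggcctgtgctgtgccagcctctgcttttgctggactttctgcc
Otud3, chr4:138913919-138914218: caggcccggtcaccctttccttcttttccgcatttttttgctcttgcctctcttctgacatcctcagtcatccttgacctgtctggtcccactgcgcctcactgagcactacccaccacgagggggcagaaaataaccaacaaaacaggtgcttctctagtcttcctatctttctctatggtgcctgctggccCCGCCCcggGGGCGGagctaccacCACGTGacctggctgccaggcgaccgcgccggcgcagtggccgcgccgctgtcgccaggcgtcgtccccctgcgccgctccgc

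The promoters differ in composition. The window of Otud3 was 62.7% G and C with 22 CpG sites, against a median of 52.7% and 7 CpG sites over 32851 promoter windows of the same length. The Pla2g5 windows had 7 and 6 CpG sites. Otud3 held 2 GC boxes, which 35.7% of all windows hold at least once, and 1 CACGTG, which 7.15% hold. Each Pla2g5 window held 1 CCAAT, found in 37.4%. Neither gene had a TATAAA (13.6%) or a TGACTCA, the consensus of AP-1 (5.20%). The run TGACTGTGGAC was found 5 times in the first Pla2g5 window and in 6 of the 32851 windows. It was picked as the run of 11 bases repeated most often there. These are descriptions of letters in a window and say nothing on which factors bind.

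On the coordinates of the files, build mm7, the Pla2g5 probe lay at chr4:138177891-138177950 and the Otud3 probe at chr4:138273865-138273924, both reading the minus strand and 95.9 kb apart. The files annotate them to messenger RNAs of Pla2g5 and Otud3 without exon or UTR. Probes of Pla2g2a and Pla2g2e and one for a testis cDNA of unclassified product, AK076876, lay between them. The AK076876 probe, at chr4:138269584-138269643, also read the minus strand and ended 4.22 kb from the Otud3 probe, on the side to which Otud3 is transcribed. Whether it reads a transcript of its own or an extended Otud3 transcript cannot be told apart with these probes.

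Between 16970 and 28800 probes were well above background per array, and the number of arrays limits the precision. CD4 arrays at 12, 24 and 72 h had a coefficient of variation of repeat spots of up to 23.6%, against 6.24 to 12.2% on the other arrays. At 0 h the sorted cells carried their lineage markers: the log2 difference of CD8 minus CD4 cells for Cd8a was 8.86 in old (adjusted p = 6.7e-07) and 9.55 in young mice (3.2e-07), and Cd4 was 5.82-fold and 10.6-fold lower in CD8 cells (limma, n = 3 per group). Signals below are log2 of the processed intensity minus the 75th percentile of the same array, so that 0 is the level of the 75th percentile. A signal is called above background where Feature Extraction marks it well above background. Errors are standard errors of the log2 difference, and calls are at a Benjamini-Hochberg adjusted p under 0.05 over the 19392 genes above background on at least 3 arrays.

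Pla2g5 was clearly measured on every old array and was at or near background on young ones. In old CD4 cells at 0 h its signal was 1.46, 1.46 and 1.09, and in young CD4 cells -6.97, -5.40 and -5.57. In old CD8 cells at 0 h it was 1.27, 1.04 and 1.11, and in young CD8 cells -6.43, -6.86 and -7.66. The groups did not overlap in either cell type. Of all genes tested, 0.0464% had no overlap between old and young over all 28 arrays, and 1.74% in CD4 and 2.22% in CD8 cells were called between the ages at 0 h, shares from which nothing is read here because Pla2g5 was chosen on this contrast. Of the 6 young arrays only the third CD4 array was above background, while all 6 old arrays were.

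After stimulation the separation remained. Old CD4 cells gave 0.50 at 4 h, 1.26 at 12 h, -0.46 at 24 h and 0.08 at 72 h, and old CD8 cells 0.48, 0.26, -0.71 and -0.43 at the same times. Young CD4 cells gave -7.62, -7.10, -6.13 and -5.81, none above background. Young CD8 cells gave -6.15, -6.34, -7.32 and, at 72 h, -3.92, the only one of the 8 stimulated young arrays above background. On the linear scale the 14 old arrays ran from 167 to 1391 intensity units (median 538) and the 14 young ones from 1.80 to 21.4 (median 3.35).

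**Figure D1:**
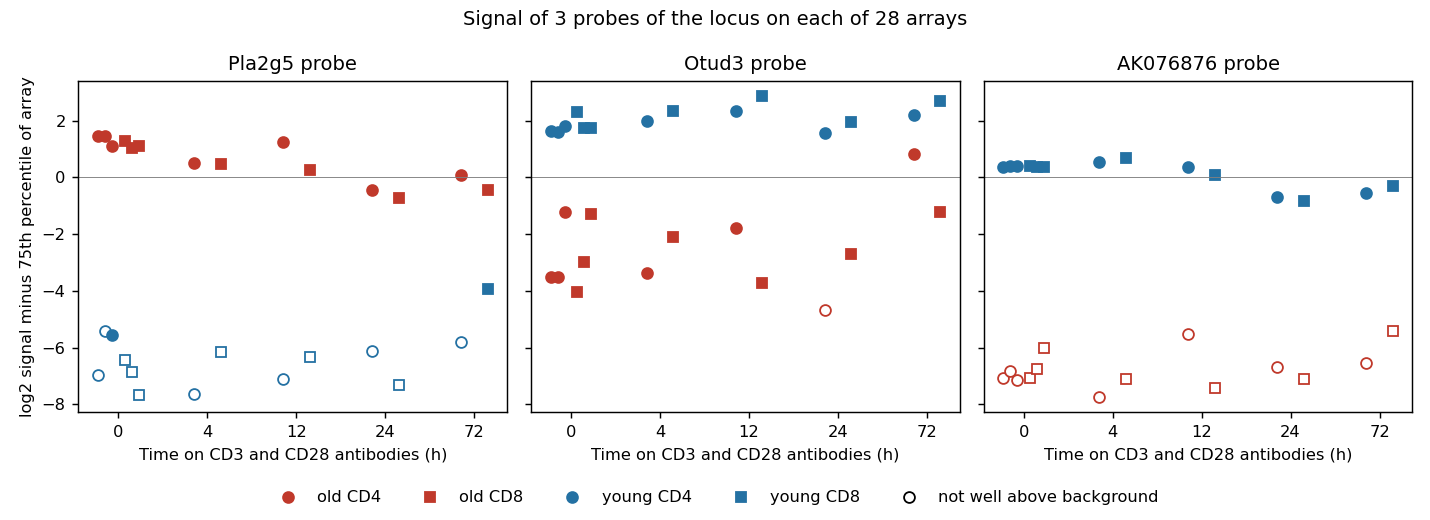
Signal of the Pla2g5, Otud3 and AK076876 probes on each of 28 arrays (vertical axis, log2 signal minus the array's 75th percentile) by hours on CD3 and CD28 antibodies (horizontal axis, evenly spaced categories). Red points are old and blue points young cells, circles CD4 and squares CD8, and open points were not well above background; old and young arrays do not overlap for any of the 3 probes, and old Otud3 at 72 h in CD4 cells (0.84) lies nearest to the young range.

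The difference of old minus young for Pla2g5 at 0 h was 7.32 ± 0.42 in CD4 and 8.12 ± 0.42 in CD8 cells (n = 3 per age). Neither is an exact size: 2 of the 3 young CD4 arrays were below background, and with every young CD8 array below it the CD8 difference is a bound of at least 63.0-fold. For such bounds each dim array was put at the lowest signal that counted as above background there, or at its measured value where that was higher, and the averages of both ages were compared. At single times after stimulation, with 1 array per age, the bounds in CD4 cells were at least 59.2-fold at 4 h, 71.7-fold at 12 h, 11.8-fold at 24 h and 15.5-fold at 72 h. In CD8 cells they were at least 42.9-fold at 4 h, 22.7-fold at 12 h and 23.1-fold at 24 h, and at 72 h, where both arrays were above background, old was 11.2-fold higher. The lowest old array and the highest young array were 3.21 apart on the log2 scale. With normexp background correction the differences at 0 h were 4.04 and 3.71. That correction used an offset of 50 intensity units, more than the processed intensity of any young array (1.80 to 21.4). Such an offset shrinks a ratio to a dim group, so these values and the bounds are not on the same scale.

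Otud3 ran the other way: it was bright in young cells and dim, but mostly measurable, in old ones. At 0 h it gave 1.63, 1.61 and 1.83 in young CD4 cells and -3.52, -3.52 and -1.21 in old CD4 cells. In CD8 cells it gave 2.32, 1.74 and 1.73 in young and -4.03, -2.99 and -1.30 in old. No old array reached the young range. The young arrays lay close together, and the old ones were spread more widely, from -3.52 to -1.21 in CD4 and from -4.03 to -1.30 in CD8 cells.

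That spread followed the slide. The third old array of each cell type, the highest of its 3, was hybridised on another slide than the first pair, together with 1 young array. Within a slide the difference of old minus young for Otud3 was -5.14 (2 arrays per age) and -3.04 (1 per age) in CD4 cells, and -5.25 and -3.62 in CD8 cells. For Pla2g5 the same slides gave 7.65 and 6.67 in CD4 cells, and 8.41 and 7.54 in CD8 cells. The direction was the same on all 4 slides for both genes. The part of slide and scan in the size of the differences was not tested. Each of these slides holds as many old as young arrays, so a slide block cannot move these differences. Among stimulated arrays the old and the young CD8 array at 12 h lay on different slides, so age and slide cannot be told apart there.

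Stimulated young cells kept Otud3 high, at 1.99, 2.35, 1.56 and 2.20 in CD4 and 2.35, 2.87, 1.96 and 2.70 in CD8 cells at 4, 12, 24 and 72 h. Old CD4 cells were uneven, at -3.37, -1.77, -4.69 and 0.84, the value at 24 h being the only one of 28 not above background. Old CD8 cells gave -2.10, -3.71, -2.71 and -1.23. The old CD4 array at 72 h came closest to the young arrays, 0.71 below the lowest of them, and young was there only 2.56-fold higher. Elsewhere the measured ratio of young over old at a stimulated time ran from 15.2-fold in CD8 cells at 72 h to 95.6-fold in CD8 cells at 12 h, and at 24 h in CD4 cells it was at least 63.0-fold. At 0 h old minus young was -4.44 ± 0.73 in CD4 and -4.70 ± 0.73 in CD8 cells (n = 3 per age).

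The transcript read by the AK076876 probe was the neighbour that differed most. It was above background on all 14 young arrays and on none of the 14 old arrays. At 0 h it gave 0.38, 0.39 and 0.40 in young CD4 cells and 0.40, 0.38 and 0.38 in young CD8 cells, against -7.09, -6.82 and -7.13 in old CD4 and -7.07, -6.74 and -6.02 in old CD8 cells. The 6 young arrays at 0 h were nearly equal, and every old one was far below them and below background. In stimulated young cells it gave 0.53, 0.36, -0.68 and -0.55 in CD4 and 0.70, 0.07, -0.85 and -0.31 in CD8 cells at 4, 12, 24 and 72 h, while stimulated old arrays lay between -7.75 and -5.43.

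With every old array below background, the size is a bound set by the lowest measurable signal and not by the fit. AK076876 was lower in old cells at 0 h by at least 46.6-fold in CD4 (measured means -7.01 in old and 0.39 in young, limma adjusted p = 8.5e-07) and at least 34.1-fold in CD8 cells (-6.61 and 0.39, adjusted p = 1.5e-06). Over the 4 stimulated times the bounds were at least 19.9-fold in CD4 (adjusted p = 0.0054) and at least 24.3-fold in CD8 cells (adjusted p = 0.0025), with 4 arrays per age. The gene passed the filter on dim genes through its young arrays alone, so these p-values add nothing to the separation seen array by array. The stimulated calls also rest on few arrays: without the pair at 24 h the adjusted p was 0.13 in CD4 and 0.094 in CD8 cells, and without the pair at 12 h it was 0.0501 in CD4 cells.

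Most neighbours differed far less. Of the 25 neighbouring genes 19 passed the filter on dim genes, and AK076876 and Camk2n1 alone were called between the ages in CD4 cells at 0 h, where 1.74% of all genes tested were called (1.22% higher and 0.521% lower). Among CD8 arrays at 0 h AK076876 alone was called, where 2.22% of all genes were, 1.7% higher and 0.521% lower. It was also the 1 neighbour called over stimulated CD4 arrays (0.113% of all genes, 0.103% higher and 0.0103% lower) and stimulated CD8 arrays (0.413%, 0.33% higher and 0.0825% lower). AK076876 passed the filter through its young arrays alone, and Camk2n1 through its old arrays. The calls of both, here and with a block, therefore add nothing to these counts. The median difference of the 19 was -0.35 in CD4 and -0.07 in CD8 cells at 0 h, beside -0.03 and -0.05 over all genes. At 0 h old and young arrays share slides, and with slide as a block far more genes were called there, 23.1% of all genes in CD4 and 9.64% in CD8 cells. Of the 19 neighbours, 5 were then called in CD4 cells, Akr7a5 (-0.57 ± 0.09, adjusted p = 0.0057), Emc1 (0.71 ± 0.13, adjusted p = 0.0086) and Mrto4 (-0.36 ± 0.10, adjusted p = 0.037) beside AK076876 and Camk2n1, and AK076876 alone in CD8 cells. With the replicate number as a block, which in CD4 cells follows the slides, 0.768% of all genes were called in CD4 cells, and AK076876 and Camk2n1 were the neighbours called. Of the 6 that did not pass, Pla2g2e was above background on no array, and Cda, Ubxn10, Pla2g2c, Pla2g2a and Rnf186 on 1 array each.

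Camk2n1, which encodes an inhibitor of calcium/calmodulin-dependent kinase II, was near background. It was above background on 5 old arrays and 1 young array. It thus passed the filter on dim genes through its old arrays, and its age call adds nothing. At 0 h it gave -4.83, -5.16 and -5.32 in old CD4 cells, replicates 1 and 3 above background, and -6.67, -6.38 and -6.59 in young CD4 cells, none above it. With the young arrays placed at the lowest measurable signal the old level was not above theirs, so neither a fold nor a direction is given. Its call in CD4 cells (limma, adjusted p = 0.029) therefore supports no size. It was lost with median scaling (adjusted p = 0.29), with normexp (0.82), with no filter on dim genes (0.060), and without replicate 1 or 2 of either age in CD4, replicate 1 of old CD8 or replicate 2 of young CD8 cells (0.054 to 0.12).

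The phospholipase genes nearest to Pla2g5 showed no such separation. Pla2g2d, a secreted phospholipase of dendritic cells and macrophages, lay next to it on one side. Its signal at 0 h was between -3.53 and -3.22 in old and between -6.14 and -3.05 in young CD4 cells, an overlap, with a difference of 1.76 ± 0.69 (limma, adjusted p = 0.23), and its difference in CD8 cells was 0.09 ± 0.69 (adjusted p = 0.99). Pla2g2f differed by 0.31 ± 0.43 and -0.12 ± 0.43 (adjusted p = 0.76 and 0.98). Pla2g2a lay on the other side of Pla2g5 and was above background on 1 young array and on no old one. The RefSeq table lists it as a transcribed pseudogene, for the reference strain. Its state in these BALB/c mice was not measured.

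On the far side of Otud3, Rnf186, a ubiquitin ligase gene, was above background on 1 array. The probes used for Tmco4, Nbl1 and Micos10 followed at 212 to 257 kb from the midpoint between the Pla2g5 and Otud3 probes. At 0 h their differences between old and young lay between -0.42 and 0.26, and none was called with or without the slide block. Further out, Capzb (an actin capping subunit), Mrto4 (a ribosome assembly factor), Akr7a5 and Slc66a1 on that side and Pink1 (a mitochondrial kinase), Ddost (a subunit of the glycosylation complex) and Mul1 (a mitochondrial ubiquitin ligase) on the other lay between -0.57 and 0.71, none called without the block. Emc1 at the edge of the window stood at 0.71 ± 0.18 in CD4 (adjusted p = 0.092) and -0.26 ± 0.18 in CD8 cells (adjusted p = 0.73). These values are from its brightest probe, whose means over all times were 3.80 on old and 3.52 on young arrays. Its other probes had means of 0.33 and 0.16 and, in the other direction, -2.87 and -2.47.

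**Figure D2:**
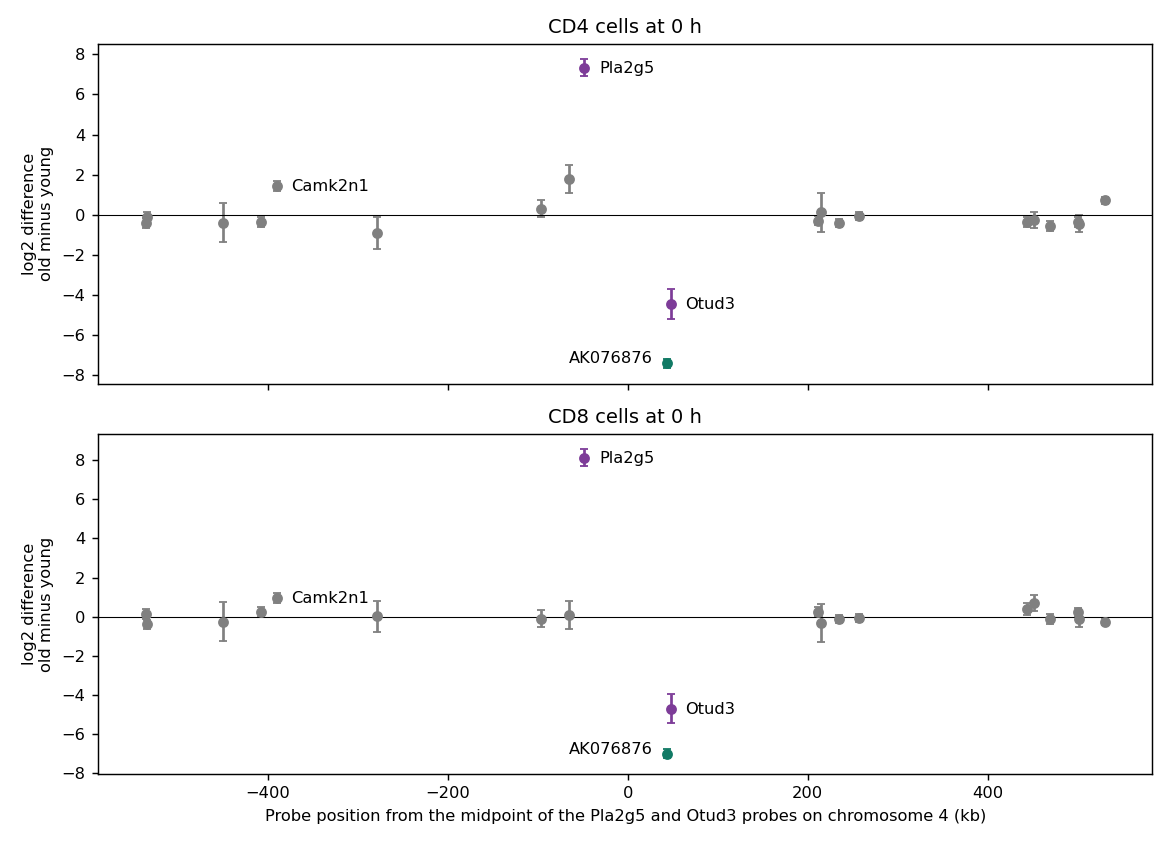
Log2 difference of old minus young at 0 h (vertical axis, bars are standard errors, n = 3 arrays per age) for Pla2g5, Otud3 and the 19 tested neighbours, by distance of the probe from the midpoint between the Pla2g5 and Otud3 probes in kb (horizontal axis), in CD4 cells (top) and CD8 cells (bottom). Pla2g5 at 7.32 and 8.12 and Otud3 and AK076876 at -4.44 to -7.40 stand away from the grey neighbours, all of which lie between -0.92 and 1.76.

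Across the array, few genes separated the ages on every array. Of 19392 genes, 9 (0.0464%) had no overlap between the 14 old and the 14 young arrays, 7 (0.0361%) with old higher and 2 (0.0103%) with young higher. Otud3 and AK076876 were the ones with young higher, and Pla2g5 was among those with old higher. Ranked by the gap between the ages, the order was Mela on chromosome 8 (5.58), AK076876 (4.58), Pla2g5 (3.21), Otud3 (0.71) and TC1488278 on chromosome 14 (0.41). Prkar2a, Naip2, ENSMUST00000067474 and Mfap1a followed at 0.41 or less. Since Pla2g5 and Otud3 were chosen for this separation, their place in the order is a description.

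Outside the locus, the genes whose signal was most like Pla2g5 over the 28 arrays were Mela (r = 0.96), TC1488278 (0.92), the bone morphogenetic protein receptor gene Bmpr1a (0.89), Naip2 (0.88) and Casp1 (0.86). The lowest r was that of Sfi1 (-0.77), Acads (-0.74) and Tsc22d1 (-0.69). For Otud3 the highest were NAP071025-1 (0.83), Mid1 (0.83), Sox12 (0.79), Mamdc4 (0.78) and Tsc22d1 (0.73), and the lowest Mela (-0.89), Pde8a (-0.85) and Mfap1a (-0.83). These correlations over 28 arrays, which share pools and slides, mostly restate the separation by age. Mela, for example, had a median of 5.67 on old and -5.75 on young arrays.

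Within an age the order changed. Over the 14 old arrays Pla2g5 was most like Tnrc6c (r = 0.95), ENSMUST00000100578 (0.94), Yipf2 (0.93), 6330403K07Rik (0.92) and Apbb1ip (0.91), and over the 14 young arrays Otud3 was most like NAP053648-1 (0.91), Tbc1d25 (0.87), Mid1 (0.87), Tulp1 (0.87) and Sf3a2 (0.86). Between Pla2g5 and Otud3, r was -0.09 over old and 0.33 over young arrays, where Pla2g5 is mostly below background. Between Otud3 and AK076876 it was 0.47 over old arrays, all below background for AK076876, and -0.04 over young ones.

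**Figure D3:**
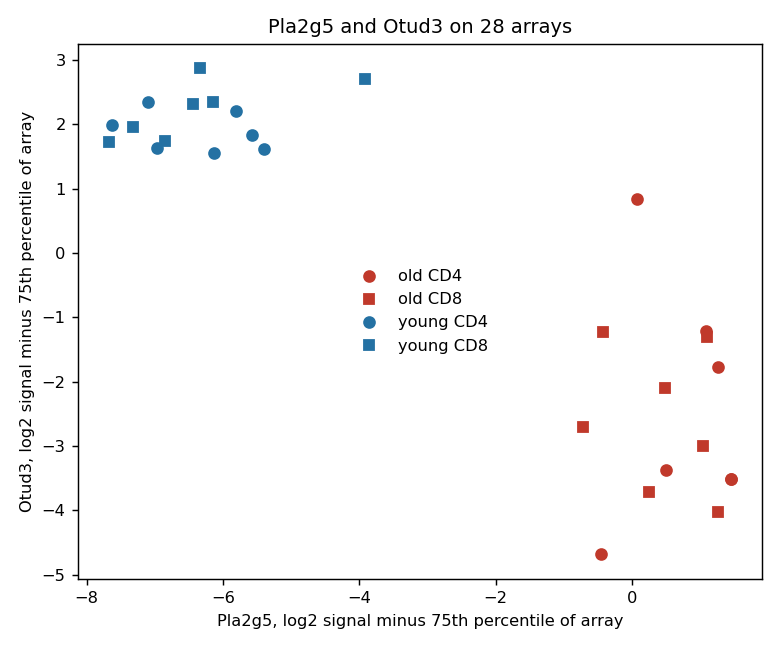
Otud3 (vertical axis) against Pla2g5 (horizontal axis) on the 28 arrays, both as log2 signal minus the array's 75th percentile, with old arrays in red, young in blue, CD4 as circles and CD8 as squares. The arrays fall into 1 cloud per age with a gap of 3.21 along Pla2g5 and 0.71 along Otud3.

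The signal of both genes differed little between the cell types. In old cells at 0 h Pla2g5 in CD8 minus CD4 was -0.20 ± 0.42 (95% interval -1.14 to 0.74, limma, adjusted p = 0.80). Otud3 in CD8 minus CD4 was -0.03 ± 0.73 in old (-1.65 to 1.60, adjusted p = 0.99) and 0.24 ± 0.73 in young cells (-1.39 to 1.86, adjusted p = 0.92), so that a difference of up to about these bounds was not detectable with 3 arrays per group. In young cells Pla2g5 was below background in all CD8 arrays and 2 of 3 CD4 arrays and is not compared. The sign of the difference of Otud3 in old cells turned with background correction by normexp (0.25). The age difference is not compared between the cell types, since both genes were chosen on it.

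Among the neighbours Nbl1, a secreted antagonist of bone morphogenetic proteins, exceeded its CD4 level 2.13-fold in the CD8 cells of old mice (1.09 ± 0.21, limma, adjusted p = 0.011) and Tmco4 1.82-fold (0.86 ± 0.22, adjusted p = 0.038), 2 of 19 neighbours where 10.6% of all genes were called, 6.34% higher and 4.31% lower. None was called in young cells, where 3.8% of all genes were, 2.38% higher and 1.42% lower. Both calls were lost with median scaling (adjusted p = 0.15 and 0.42). That of Nbl1 was also lost without the second old CD8 array (0.055), and that of Tmco4 without any 1 of the 6 old arrays (0.061 to 0.11) and without 4 of the young ones (0.052 to 0.059).

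Stimulation moved Pla2g5 and Otud3 by less than the fit could call. Pla2g5 in old cells stood at -0.99 ± 0.60 in CD4 (limma, adjusted p = 0.27) and -1.24 ± 0.60 in CD8 cells (adjusted p = 0.21), stimulated arrays of all times (n = 4) minus 0 h (n = 3). In old CD8 cells the 4 stimulated arrays all lay below the 3 at 0 h, and in old CD4 cells 3 of 4 lay below. The share of all genes with such an order was not counted, so nothing is read from it. Otud3 stood between 0.33 and 0.54 in the 4 combinations of age and cell type, with adjusted p from 0.73 to 0.87 and a standard error of 0.87. AK076876 in young cells stood at -0.47 ± 0.48 in CD4 and -0.48 ± 0.48 in CD8 cells (adjusted p = 0.57 and 0.55). With all times as 1 group, the spread includes change over time. No stimulated array shared a slide with an array at 0 h. In CD4 cells all stimulated arrays were read with Feature Extraction 9.5.1.1, and at 0 h only the third array of each age was. Change with stimulation, here and below, therefore cannot be told apart from slide, nor in CD4 cells fully from software version and scanner.

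Of the 19 neighbours, 4 were called with stimulation in old CD4 cells, where 18% of all genes were called (10.5% higher and 7.48% lower): Mrto4 rose 5.32-fold (2.41 ± 0.51, limma, adjusted p = 0.0021), Capzb 2.67-fold (1.42 ± 0.44, adjusted p = 0.028, measured on 26 of 28 arrays after spots marked as outliers were left out) and Mul1 2.35-fold (1.23 ± 0.35, adjusted p = 0.016), and Pink1 fell 2.54-fold (-1.34 ± 0.35, adjusted p = 0.0089). In young CD4 cells (17.8% of all genes called, 10% higher and 7.75% lower) Mrto4 rose 5.23-fold and Pink1 fell 2.94-fold. In young CD8 cells (14.2%, 6.66% higher and 7.56% lower) Mrto4 rose 3.39-fold (adjusted p = 0.022) and Pink1 fell 4.12-fold, and in old CD8 cells (10.3%, 4.58% higher and 5.7% lower) Pink1 alone was called, falling 3.41-fold. The calls of Capzb and Mul1 ended without the third old CD4 array (adjusted p = 0.12 and 0.091), the arrays at 12 h (0.12 and 0.069) or those at 24 h (0.17 and 0.085). That of Mrto4 in young CD8 cells ended without any 1 of the young CD8 arrays at 0 h (0.053 to 0.090) or the arrays at 12 h (0.082).

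The other secreted phospholipases were followed in the same way. Of 12 listed secreted phospholipases and their receptor, 8 passed the filter. Of the 7 besides Pla2g5, 0 were called at 0 h, where 1.74% of all genes were called in CD4 and 2.22% in CD8 cells, or over stimulated arrays (0.113% and 0.413% of all genes). With slide as a block at 0 h 0 of the 7 were called too, where 23.1% and 9.64% of all genes were. At 0 h the others lay between -0.99 and 1.76 in CD4 and between -0.27 and 1.34 in CD8 cells. The median of the list was -0.08 in CD4 and 0.29 in CD8 cells. Pla2g12a, a secreted phospholipase gene on another chromosome, was above background on all 28 arrays and rose with stimulation: 22.6-fold in old CD4 (limma, adjusted p = 7.2e-07), 9.92-fold in young CD4, 3.94-fold in old CD8 and 6.41-fold in young CD8 cells. Its response and that of Pla2g5 were not tested against each other. Of 12 tested cytosolic, calcium-independent and lysosomal phospholipases and acetylhydrolases of platelet-activating factor, none was called for age without a block. With slide as a block 3 were called in CD4 cells (23.1% of all genes), Pafah1b2 (0.47 ± 0.09) and Pafah1b3 (0.74 ± 0.16) higher and Pla2g4f (-2.34 ± 0.61) lower in old, and Pafah2 in CD8 cells (0.51 ± 0.11, 9.64% of all genes).

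Of 24 tested genes of eicosanoid synthesis and eicosanoid receptors, Cysltr2, a receptor of cysteinyl leukotrienes, was the 1 called between the ages, 8.35-fold higher in old CD8 cells at 0 h (3.06 ± 0.63, limma, adjusted p = 0.037), where 2.22% of all genes were called. With slide as a block 5 were called in CD4 cells (23.1% of all genes), Cysltr2 (2.09), Ltb4r1 (2.21) and Ptges3 (0.54) higher and Ptgdr2 (-0.67) and Ptges2 (-0.54) lower in old. In CD8 cells 3 were then called (9.64% of all genes), Cysltr2 and Hpgds (2.00) higher and Ptgdr2 (-0.72) lower. With the replicate number as a block Hpgds alone was called, in CD8 cells (1.9% of all genes), and Cysltr2 was not. Hpgds was above background on 6 old and 2 young arrays. It passed the filter on dim genes through its old arrays, so its age calls add nothing. The median of the list at 0 h was -0.06 in CD4 and 0.20 in CD8 cells. With stimulation the receptor Ptger2 rose in all 4 combinations, by 4.67-fold in old CD8 to 14.4-fold in young CD4 cells. The prostaglandin E synthase Ptges was called higher in old and in young CD4 cells. In CD4 cells Cysltr2 rose 7.33-fold in old and 5.88-fold in young, and Ptges3 2.70-fold in young. Genes of the list also fell: Alox5ap 4.90-fold in old CD4 and 6.55-fold in old CD8 cells, Ptgs1 5.98-fold and Hpgds 4.39-fold in young CD4 cells, and Ptger1 4.87-fold in young CD8 cells. The calls were 4 of 24 in old CD4 (18% of all genes), 6 in young CD4 (17.8%), 2 in old CD8 (10.3%) and 2 in young CD8 cells (14.2%).

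Among OTU deubiquitinases, 14 of 16 listed genes were tested. Of the 13 besides Otud3, 0 were called in a comparison of old and young without a block, where 1.74% in CD4 and 2.22% in CD8 cells of all genes were called at 0 h. With slide as a block 6 others were called in CD4 cells (23.1% of all genes), Yod1 (0.85) and Otud4 (0.35) higher and Tnfaip3 (-0.99), Otub1 (-0.49), Zranb1 (-0.44) and Otud1 (-0.41) lower in old. In CD8 cells (9.64%) Otud1 (-1.14), Otud7b (-0.87), Zranb1 (-0.55) and Yod1 (-0.55) were called lower. The median of the list at 0 h was -0.19 in CD4 and -0.10 in CD8 cells. In CD4 cells the others lay between -0.99 and 0.85. With stimulation Otud1 fell in all 4 combinations, by 3.59-fold in old CD4 to 10.7-fold in young CD8 cells. Otud6b rose 3.69-fold in old and 4.25-fold in young CD4 cells, and Otulin 1.78-fold in old CD8 cells (adjusted p = 0.031). These are 1 or 2 of 14 in each combination, where 10.3% to 18% of all genes were called.

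**Figure D4:**
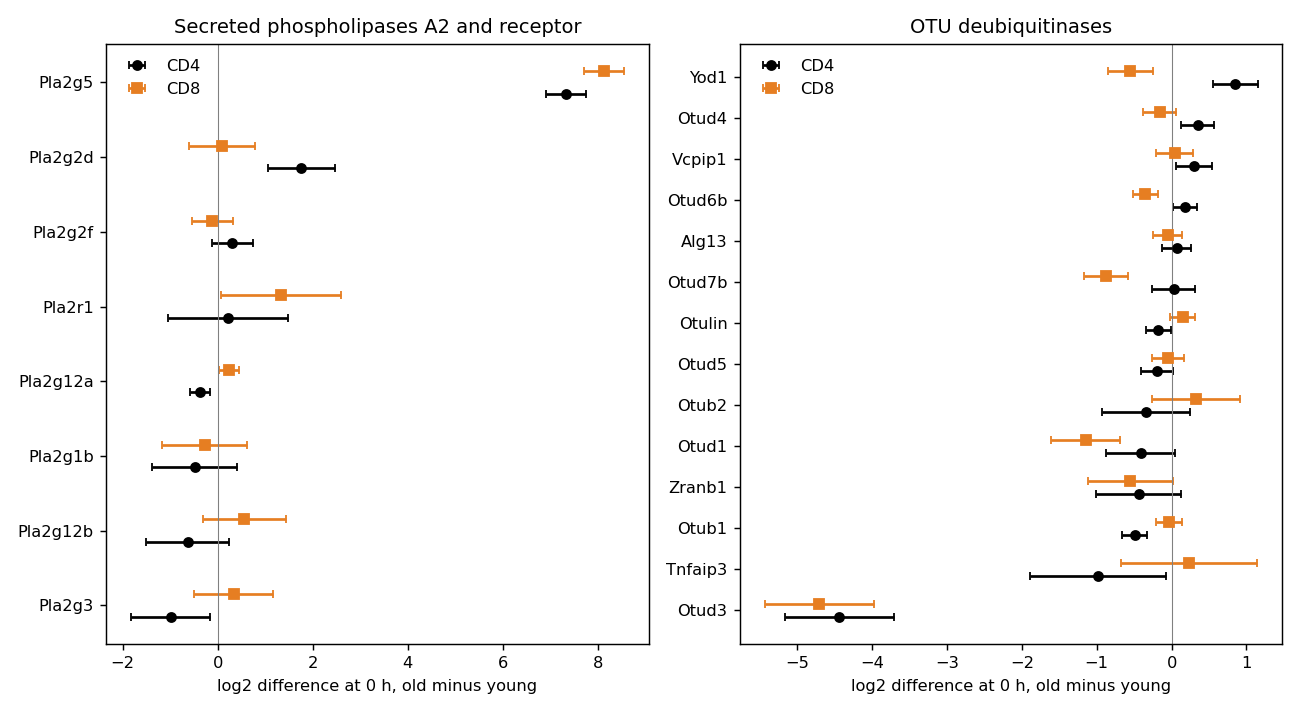
Log2 difference of old minus young at 0 h (horizontal axis, bars are standard errors, n = 3 arrays per age) for the tested secreted phospholipases A2 with their receptor (left) and the tested OTU deubiquitinases (right), in CD4 cells (black circles) and CD8 cells (orange squares). Pla2g5 at 7.32 and 8.12 and Otud3 at -4.44 and -4.70 lie outside the span of the other members, which is -1.14 to 1.76.

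Markers of other cells were followed because Pla2g5 is known from myeloid cells. The summed signal of 8 macrophage and monocyte markers (as multiples of the 75th percentile, all 8 above background on some array of each group at 0 h) ran from 6.11 to 168 in old and 1.89 to 54.9 in young CD4 cells and from 16.5 to 37.7 in old and 6.07 to 27.2 in young CD8 cells. The ranges of the ages overlap in both cell types, and 0 of the 8 were called for age (1.74% of all genes in CD4 and 2.22% in CD8 cells at 0 h). Such sums weigh the brightest marker most. Lyz2 reached a log2 signal of 7.36 on its highest array and no other marker more than 0.56, so the larger sums are mostly Lyz2. With slide as a block 23.1% of all genes were called in CD4 and 9.64% in CD8 cells at 0 h. Lyz2, the lysozyme of myeloid cells, was then called higher in old CD4 (2.34 ± 0.25, limma, adjusted p = 0.0016) and old CD8 cells (1.22 ± 0.25, adjusted p = 0.023), and Csf1r lower in old CD4 cells (-1.09 ± 0.24, adjusted p = 0.017). For 7 mast cell and basophil markers the sums overlapped too, with 0 of 6 tested called at 0 h, with or without the block, and Kit lower in old cells over stimulated CD8 arrays (-3.17 ± 0.30, adjusted p = 0.0050, where 0.413% of all genes were called). The sums of 7 B cell markers were higher in old cells, 8.60 to 8.62 against 1.14 to 3.21 in CD4 and 9.98 to 18.8 against 7.42 to 8.11 in CD8 cells, with 4 of 7 called in CD4 and 1 of 7 in CD8 cells at 0 h and none over stimulated arrays. The slide block gave 5 and 2 of 7 called at 0 h, all higher in old, and with the replicate number as a block 1 of 7, Pax5, was called in CD4 cells. Pax5 was above background on 6 old arrays and on no young array. It passed the filter on dim genes through its old arrays alone, so its calls in these counts add nothing. The 4 natural killer cell markers summed to 0.781 to 1.87 in old against 0.380 to 0.741 in young CD4 cells. In CD8 cells they summed to 8.33 to 10.9 against 5.27 to 6.56, with 0 of 4 called. These sums weigh Eomes most, whose median signal was 1.17, against -4.04 to -3.84 for the others. In CD4 cells Eomes was higher in old (2.14 ± 0.57), while Ncr1 (-1.15), Klra8 (-1.44) and Klrb1c (-0.31) were lower. Of the dendritic cell markers 0 of 3 tested were called. By the fit with the slide block Eomes was called higher in old CD4 (2.14, 23.1% of all genes called) and Klrb1c in old CD8 cells (0.93, 9.64%). By that fit the dendritic cell marker Xcr1 was called lower in old CD4 cells (-1.33). The T cell genes Cd3e (-0.80), Cd3d (-0.38), Cd4 (-0.86) and Zbtb7b (-0.77) were then called lower in old CD4 cells as well. Zbtb7b, the transcription factor of the CD4 lineage, was 4.64-fold higher in old than in young CD8 cells without a block (2.21 ± 0.23, limma, adjusted p = 0.0011), while Cd4 itself stood there at 0.0058 ± 0.36. The part of these cells in the signal of Pla2g5 was not tested, and fewer cells of a type and less RNA per cell cannot be told apart in such pools.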

How the data were processed

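Each of the 28 arrays was a one-colour (Cy3) Agilent array whose scanner output the authors deposited. Per the file headers the values are processed intensities from Feature Extraction 10.1.1.1 (18 arrays) or 9.5.1.1 (10 arrays), background-subtracted by that program. The 9.5.1.1 arrays, read on another scanner model, were the stimulated CD4 arrays and the third CD4 array of each age at 0 h. Log2 values of the authors' deposited value table, with column medians from -0.97 to 0.49, served as an alternative at 0 h. Its normalization and centring are not given in the sources used here. On deviations from each probe's mean, 22 of 28 columns matched their own array best, and 6 stimulated CD8 columns matched another time of the same age.

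From the intensities, log2 minus the array's 75th percentile was taken, control and outlier spots were left out, spots of a probe were averaged, and the brightest probe stood for a gene. Probes were named through RefSeq by accession (23082), symbol (6582) or synonym (3073), otherwise by the file (8437). Genes above background on at least 3 arrays went into linear models (R 4.3.3, limma 3.58.1, lmFit and eBayes), with Benjamini-Hochberg adjustment over all genes of a comparison and a threshold of 0.05. The 0 h comparisons used the 12 arrays at 0 h. Comparisons of age over stimulated arrays took the 4 times together. In CD4 cells arrays of the same replicate number shared a slide and deviated together (r of 0.55, 0.49 and 0.68), and in CD8 cells same-numbered arrays did not deviate together (-0.24, 0.09 and -0.40). The fits were tested on simulated data. Genes named are Pla2g5, Otud3, the neighbours within 500 kb, list members past the threshold and the genes with the highest and lowest correlation with either gene. Members and lists were chosen with earlier results of these data known. One further gene list is not reported here. Alternatives were median scaling, normexp background correction, no filter, slide or replicate as a block, the deposited table and leaving out arrays.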

Additional observations from a re-analysis of the deposited data

Results flagged for a closer look

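Among the 12 groups of 4 stimulated arrays examined for Pla2g5, Otud3 and AK076876, 1 held an array far from the others: AK076876 in old CD8 cells at 72 h, at -5.43 against -7.42 to -7.10 at 4, 12 and 24 h. All 4 values are below background. Chance gives about 1 such array in 20 groups.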

How the results depend on the processing

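The differences between old and young of Pla2g5, Otud3 and AK076876 kept their direction under every alternative run. With normexp on spot medians, chosen after seeing the data because 18 files lack the spot means planned, they were smaller for Pla2g5 (4.04 and 3.71 at 0 h, 2.72 and 2.01 over stimulated arrays, CD4 and CD8) and for Otud3 (-3.27 and -3.25 at 0 h, -3.56 over stimulated CD8 arrays). The normexp offset of 50 shrinks ratios to dim groups. Normexp turned Otud3 in CD8 minus CD4 of old cells to 0.25 and in stimulated minus resting old CD8 cells to -0.13, and slide as a random block turned AK076876 in CD8 minus CD4 of young cells to 0.073, none of them called. Without 1 array or time, the age difference ran, for CD4 and CD8 at 0 h and then stimulated CD4 and CD8, from 6.83 to 7.61, 7.78 to 8.40, 6.56 to 7.46 and 5.57 to 6.61 for Pla2g5, from -5.21 to -4.05, -5.44 to -4.08, -5.24 to -3.61 and -5.23 to -4.35 for Otud3, and from -7.50 to -7.35, -7.29 to -6.77, -6.76 to -5.96 and -7.19 to -6.29 for AK076876. CD8 minus CD4 ran from -0.76 to 0.74 (Otud3, old) and -0.011 to 0.0019 (AK076876, young), and stimulated minus resting Otud3 from -0.53 to 1.32 in old CD4 and -0.29 to 1.07 in old CD8 cells.

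Counts of genes called moved more. For CD8 against CD4, 2064 in old cells became 1105 with median scaling, 4267 with normexp, 1296 without a filter, 454 with slide as a random block and 808 to 2678 without 1 array, and 737 in young cells became 296 with median scaling, 223 with the random block and 408 to 1138. For age at 0 h, 337 in CD4 became 74 with median scaling, 116 without a filter, 4487 with slide as a block and 29 to 593 without 1 array, and 430 in CD8 became 264, 1869 with slide as a block and 174 to 706. For age over stimulated arrays, 22 in CD4 became 52 with median scaling, 35 with normexp and 1 to 7 without 1 time, and 80 in CD8 became 140, 53 and 1 to 57. For stimulation, old CD4 (3496) gave 2313 with median scaling, 2156 with normexp and 2115 to 6655 without 1 array, young CD4 (3445) 2275, 2072 and 2030 to 5759, old CD8 (1994) 1030 with normexp and 979 to 3696, and young CD8 (2759) 1831, 1507 and 1597 to 4261. The share of higher calls moved from 59.5% to 39.3% with median scaling and 75.5% with normexp (CD8 against CD4, old), from 70.0% to 91.9% with median scaling (age, CD4 at 0 h), from 44.6% to 64.9% with median scaling (stimulation, old CD8) and from 90.9% to 74.3% with normexp (age, stimulated CD4). The cause was not tested.

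With the replicate number as a block (replicate block), 149 genes were called for age in CD4 cells, and no age call of the neighbours at 0 h changed. Signal over background limits Pla2g5 in young and AK076876 in old cells to bounds.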
